A study of Mus musculus with 2 samples.

Results

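The 9 genes examined here encode proteins of the lysosome: prosaposin (Psap), progranulin (Grn), the cathepsins D, B, L, S and Z (Ctsd, Ctsb, Ctsl, Ctss and Ctsz) and the lysosome-associated membrane proteins Lamp1 and Lamp2. They were found by symbol among the 32285 genes counted, each under 1 identifier. Spinal cords of FVB mice were taken at postnatal day 4 for single-cell RNA-seq, which gave 1 SMA library and 1 Con library, named here as the labels name them. The genotype of the SMA library was given as (mSmn-/-, hSMN22tg/0), that is, without intact mouse Smn. The genotype of the Con library was given as (mSmn+/-, hSMN22tg/0), so its mice were heterozygotes rather than wild type, and mice of both groups carried the human SMN2 transgene. Per the study's methods this is the severe Taiwanese model of spinal muscular atrophy (SMA), a motor neuron disease caused by loss of the SMN protein, and the spinal cords of 3 mice were pooled for the SMA library, with littermates as controls. Sexes were not stated. Each group was 1 library, so a difference had no replicate error beside it and was not tested.

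Lysosomes are the acidic compartments in which cells break down proteins, lipids and carbohydrates, and phagocytic cells such as microglia are rich in them. Prosaposin is cut in the lysosome into saposins, small proteins that present sphingolipids to the enzymes that degrade them, and secreted prosaposin is a ligand proposed for the receptors Gpr37 and Gpr37l1 on glia. Progranulin binds prosaposin and travels with it to the lysosome by the receptors Sort1 and Lrp1. Cathepsin D is an aspartyl protease, and cathepsins B, L, S and Z are cysteine proteases, of which cathepsin S is typical of antigen-presenting cells. Lamp1 and Lamp2 are heavily glycosylated proteins of the lysosomal membrane.

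Members were counted by unique molecular identifiers (UMIs), each of which tags 1 captured RNA molecule. After filtering, 6787 SMA cells and 8916 Con cells were used, with a median of 6109 and 6232 UMIs per cell. The files shared 8163 barcodes, and the 6509 kept SMA cells that carried such a barcode were left out, because the same cell may then be present in both libraries. Cells were grouped by rebuilt clusters into classes named after their markers and written with "-like", and 11 classes held at least 50 cells in each library. Of the fixed markers of these 11 classes, all had at least 2-fold the level of the other cells, except for 1 of 8 in oligodendrocyte precursors (OPC), 2 of 8 in committed oligodendrocyte precursors (COP) and 1 of 8 in erythroid-like cells. Smn1 had a level of 51.9 CPM (UMIs of a gene scaled to the total of its cells) in the named cells outside the erythroid-like class of the SMA library and 50.6 CPM in those of the Con library. The files do not show in which part of the gene these reads lie, so the value does not check the labels. Xist was at 1.72 and 616 CPM in the same cells, so the sexes in the libraries were not alike, and Lamp2 lies on the X chromosome. The part of this imbalance in the results was not tested. Haemoglobin RNA was lower in the SMA library outside erythroid-like cells (log2 ratio -1.01).

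The members lie on 9 chromosomes in GRCm38. Psap is at chr10:60277627-60302597, Grn at chr11:102430315-102437048, Ctsd at chr7:142375911-142388038 and Ctsb at chr14:63122462-63145923. Ctsl is at chr13:64359337-64370890, Ctss at chr3:95526786-95556403, Ctsz at chr2:174427493-174439039, Lamp1 at chr8:13159161-13175338 and Lamp2 at chrX:38401357-38456454. Many lysosomal genes carry E-boxes, CACGTG, near their start, to which factors of the MiT family such as Tfeb bind. In the 250 bases before the start, taken from RefSeq on GRCm38.p6, Lamp1 held 4 such hexamers, Ctsd 2 and Ctsl 1, and the promoters listed for Psap, Grn, Ctss, Ctsz and Lamp2 held 0. CACGTG reads the same on both strands and was present in 1978 of 32851 promoters (6.02%), and the longer palindrome TCACGTGA, which contains it, in 258 (0.785%). Ctsd was the only member with the longer form, and it is among these 258. The stretches of Lamp1 (chr8:13159088-13159160, plus strand) and of Ctsd (chr7:142387908-142387937, minus strand) that hold the E-boxes nearest the start are given here 5′ to 3′ on the strand of the gene, with each CACGTG in capitals. They are shown because these boxes are the sequence that the lysosomal genes are known for. The starts of RefSeq for Ctsd, Ctsl and Grn, and the later of those listed for Psap, lie inside the GENCODE spans given above. The Ctsd stretch shown is thus before the start in RefSeq and within the gene in GENCODE. The bases searched for Grn also lay mostly within its GENCODE span. A match of letters is not a measured binding site.
Lamp1: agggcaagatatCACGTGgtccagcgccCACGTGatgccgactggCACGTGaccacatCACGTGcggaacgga
Ctsd: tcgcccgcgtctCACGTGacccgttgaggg

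All 9 genes were detected in each of the 11 classes of both libraries, and microglia-like cells had the highest level of each, with 1 exception in 1 library. Levels below are CPM of the summed UMIs of a class, with exact 95% Poisson intervals that cover counting error only. They compare classes for the same gene, since UMI levels of different genes are not set against each other here.

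Psap was widely expressed. Microglia-like cells had 1466 CPM in the SMA library (1439 to 1492) and 1570 CPM in the Con library (1540.3 to 1601). Astrocyte-like cells followed with 956 and 1039.7 CPM, and ependymal-like cells, which line the central canal, with 687 and 799.8 CPM. These first 3 places were the same in both libraries and their intervals did not overlap. Fibroblast-like, Schwann-like and oligodendrocyte-like cells came next, between 358 and 458 CPM, with overlapping intervals between neighbours. Erythroid-like cells had 29.04 and 31.1 CPM, but haemoglobin took 89.5% and 89.9% of their UMIs, which lowers the CPM of every other gene there. Per UMI outside haemoglobin they had 277 and 307 CPM of Psap, beside 250.5 and 309.9 CPM in endothelial-like cells. Of all Psap UMIs in named cells, microglia-like cells held 40.9% in the SMA library and 28.6% in the Con library, while they made up 17.4% and 11.01% of the named cells. Astrocyte-like cells held 28.95% and 32.8%.

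Grn, Ctsd and Ctss were concentrated in microglia-like cells. Grn had 1153 and 1210.3 CPM there in the SMA and Con libraries, 14.0-fold and 11.9-fold its level in astrocyte-like cells. Ctsd had 3814 and 4709 CPM, 10.5-fold above the next class in both libraries, which was mural-like cells in the SMA library and Schwann-like cells in the Con library. Ctss, with 2139.8 and 2289 CPM, stood far above the 16.9 and 18.3 CPM of astrocyte-like cells. Microglia-like cells held 94.1% and 84.8% of the Ctss UMIs of the named cells, and 81.8% and 68.9% of those of Ctsd.

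Ctsb and Ctsz were led by microglia-like cells as well. Ctsb had 2531 and 2817 CPM in microglia-like cells. The next class was astrocyte-like cells (392.2 CPM) in the SMA library and fibroblast-like cells (616 CPM) in the Con library. Per UMI outside haemoglobin, however, erythroid-like cells came next in both libraries, at 540 and 826 CPM. Astrocyte-like cells of the SMA library then had 395 CPM, and fibroblast-like cells of the Con library 628 CPM. Ctsz had 1060.3 and 1116 CPM in microglia-like cells, 245 and 225 CPM in mural-like cells (pericytes and smooth muscle) and 219 and 347 CPM in fibroblast-like cells, but 18.3 and 19.3 CPM in OPC-like cells.

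Ctsl, Lamp1 and Lamp2 were, like Psap, spread over many classes. Ctsl had 1239 and 1327 CPM in microglia-like cells, 1157 and 1209 CPM in fibroblast-like cells and 1066 and 1018 CPM in astrocyte-like cells. In the SMA library the first 2 of these did not differ beyond their counting intervals. Lamp1 was the exception to the microglial lead. Oligodendrocyte-like cells, at 1101 CPM, were above microglia-like cells, at 1024 CPM, in the SMA library, whereas microglia-like cells led at 1160.4 CPM against 1041 CPM in the Con library. Lamp2 ranged from 313 and 329.7 CPM in microglia-like cells to 78.2 and 80.6 CPM in OPC-like cells, the lowest class but the erythroid-like cells.

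**Figure D1:**
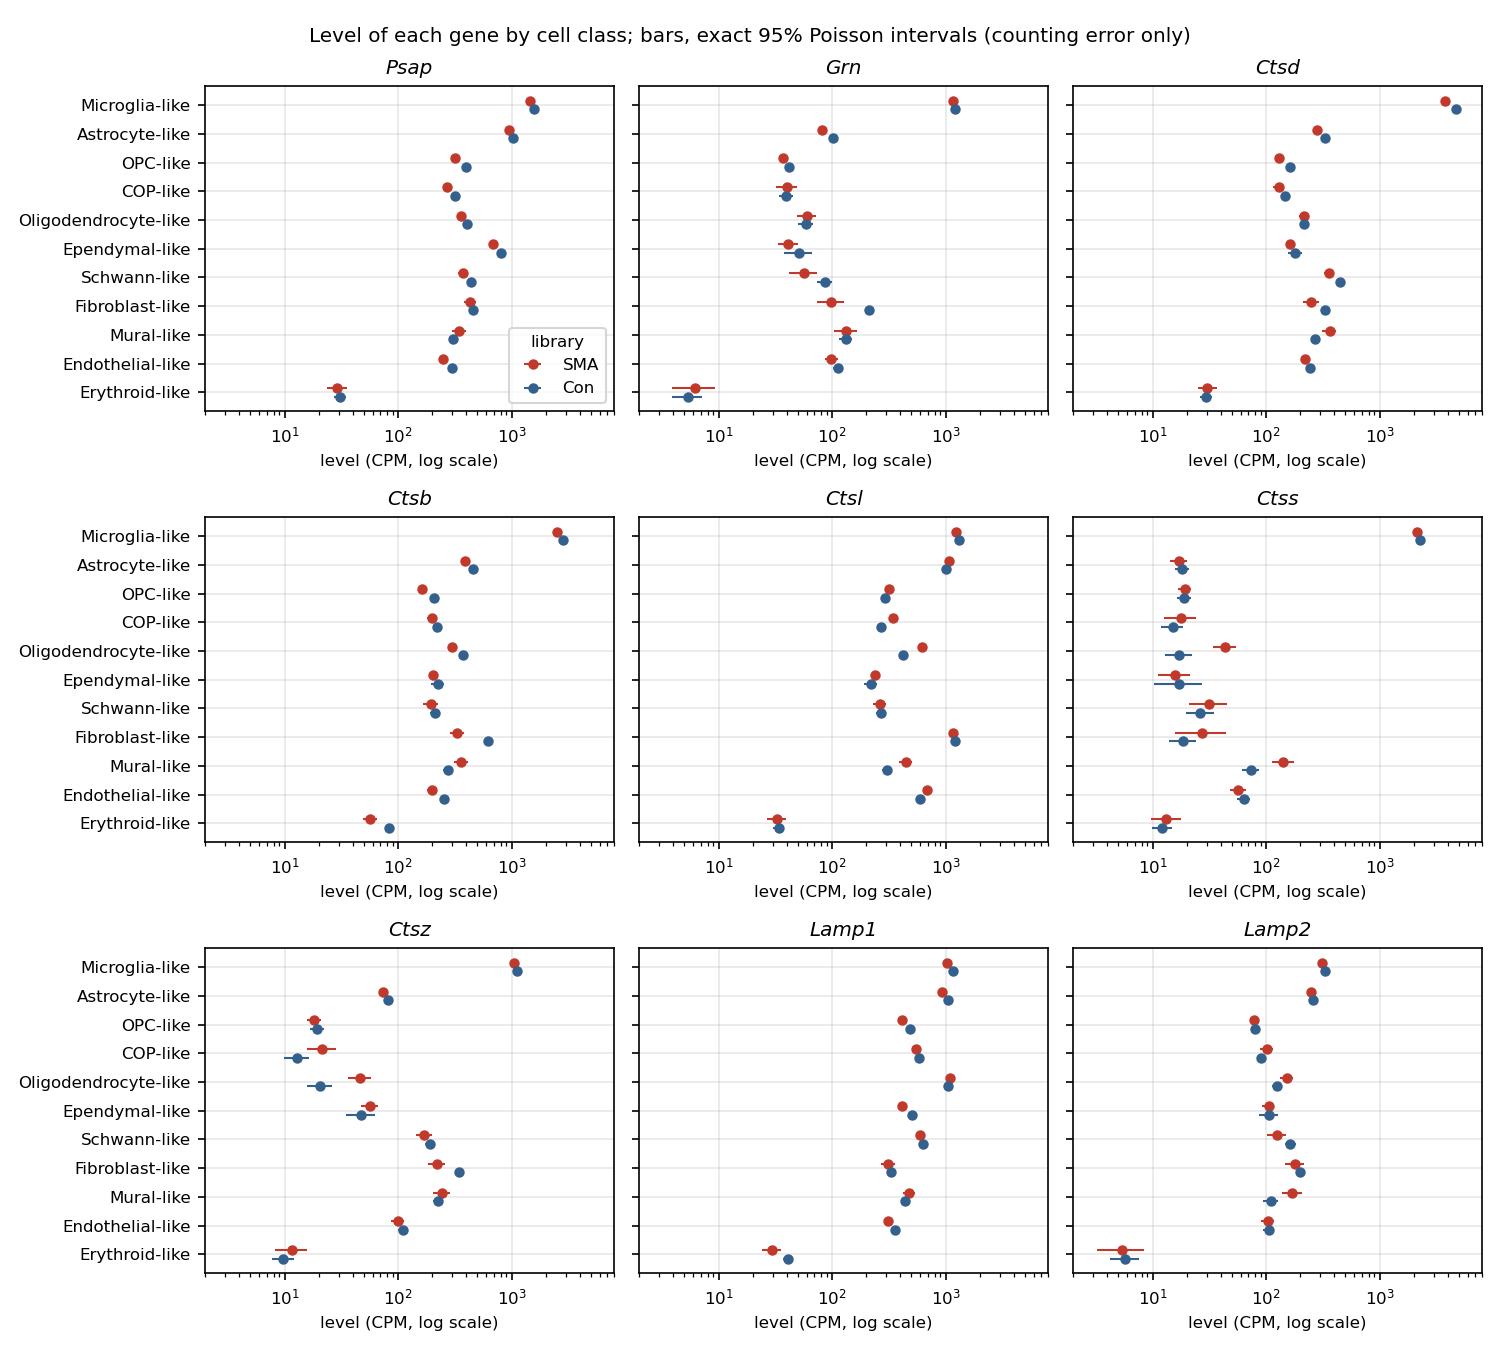
Level of each of the 9 genes (CPM of summed UMIs, log axis) in 11 cell classes, as points for the SMA library (red) and Con (blue) with exact 95% Poisson intervals as bars. Ctsd, Ctss and Grn stand far to the right in microglia-like cells alone, whereas Psap, Ctsl, Lamp1 and Lamp2 vary less between classes.

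Free RNA in the suspension, or doublets, can bring microglial transcripts into other cells, so each level outside microglia-like cells was set beside the level that would accompany its C1q RNA. C1qa, C1qb and C1qc are complement genes of microglia and macrophages. Their summed level in the other 10 classes lay between 0.499% and 6.96% of that in microglia-like cells. The same percentage of a gene's microglial level was taken as the part that would come with it. This assumes that such RNA holds its genes in the ratio of all microglia-like cells together, which was not tested, and the ratios differ between microglia-like clusters. For Ctss this part had a median of 106% of the measured level over the 20 values of 10 classes and 2 libraries, with a range from 47.9% to 175%. The lowest parts were in fibroblast-like cells of the SMA library (47.9%) and COP-like cells of the Con library (76.2%). At these levels Ctss outside microglia-like cells is not read as expression. For Psap, Ctsl, Lamp1 and Lamp2 the median part was 4.48%, 4.46%, 2.46% and 3.72%, so most of their RNA in the other classes was not at that ratio. Ctsb (16.0%), Ctsz (25.9%), Grn (25.7%) and Ctsd (26.3%) lay between. The largest parts of Psap, 36.5% and 29.6%, were in erythroid-like and mural-like cells of the SMA library.

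**Figure D2:**
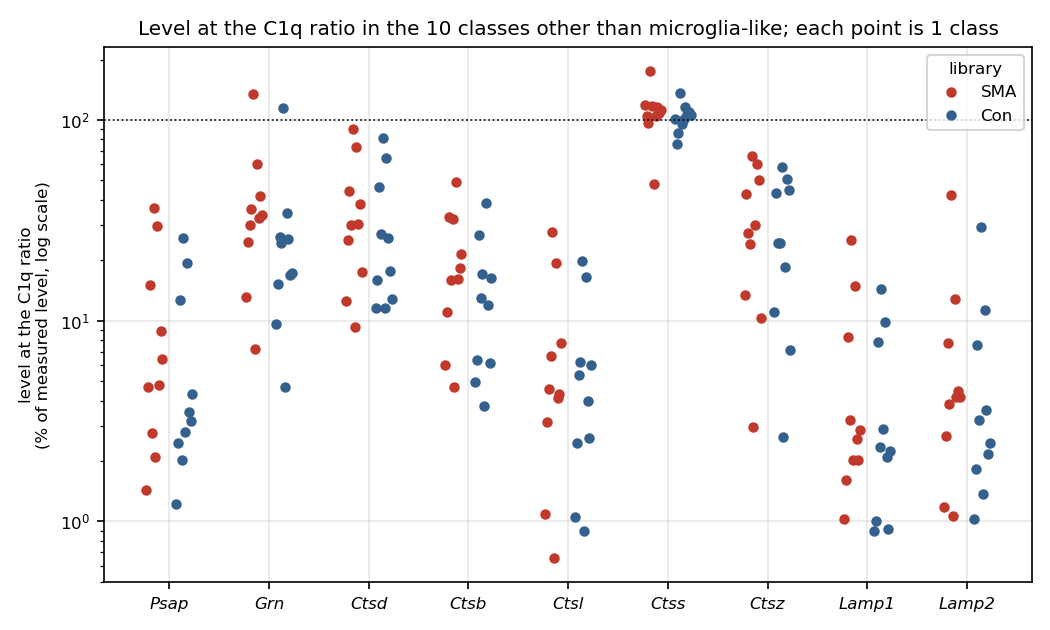
Level that would accompany C1q RNA, as a percentage of the measured level (log axis), for each gene in the 10 classes other than microglia-like; each point is 1 class, red for the SMA library and blue for Con, and the dotted line marks 100%. The Ctss points gather around the line, and those of Psap, Ctsl, Lamp1 and Lamp2 lie mostly below 10%.

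The libraries were then compared within each class, to ask whether lysosomal transcripts differed between SMA and Con cells of the same kind. Most differences were small. Of the 94 pairs of a member and a class with at least 100 UMIs, 65 had a log2 ratio (SMA over Con) below 0, 5 were at -0.5 or lower, and 7 were at 0.5 or higher. Among all genes compared, 41.7% to 56.1% were below 0, depending on the class, and 2.07% to 24.7% were past the fold of 0.5 downward and 2.84% to 17% upward. Psap and Ctsb were lower in 10 of 11 classes, and Ctsd and Lamp1 in 9 of 11. As background, 12.2% of the 991 genes with enough UMIs in all 11 classes were lower in 10 or more of them, and 18.5% in 9 or more. Ctsl went the other way, with higher values in 7 of 11 classes, as did 51.2% of these genes in 7 or more. Over all used cells, Psap was higher in the SMA library, at 664 against 634 CPM (log2 ratio 0.07), where a total also reflects the makeup of the cells. Microglia-like cells, with their high level, were a larger share of the named cells in the SMA library. An unnamed cluster of low depth led by Aif1, nearest to microglia by its markers, held 170 SMA and 472 Con cells and is not in that share.

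**Figure D3:**
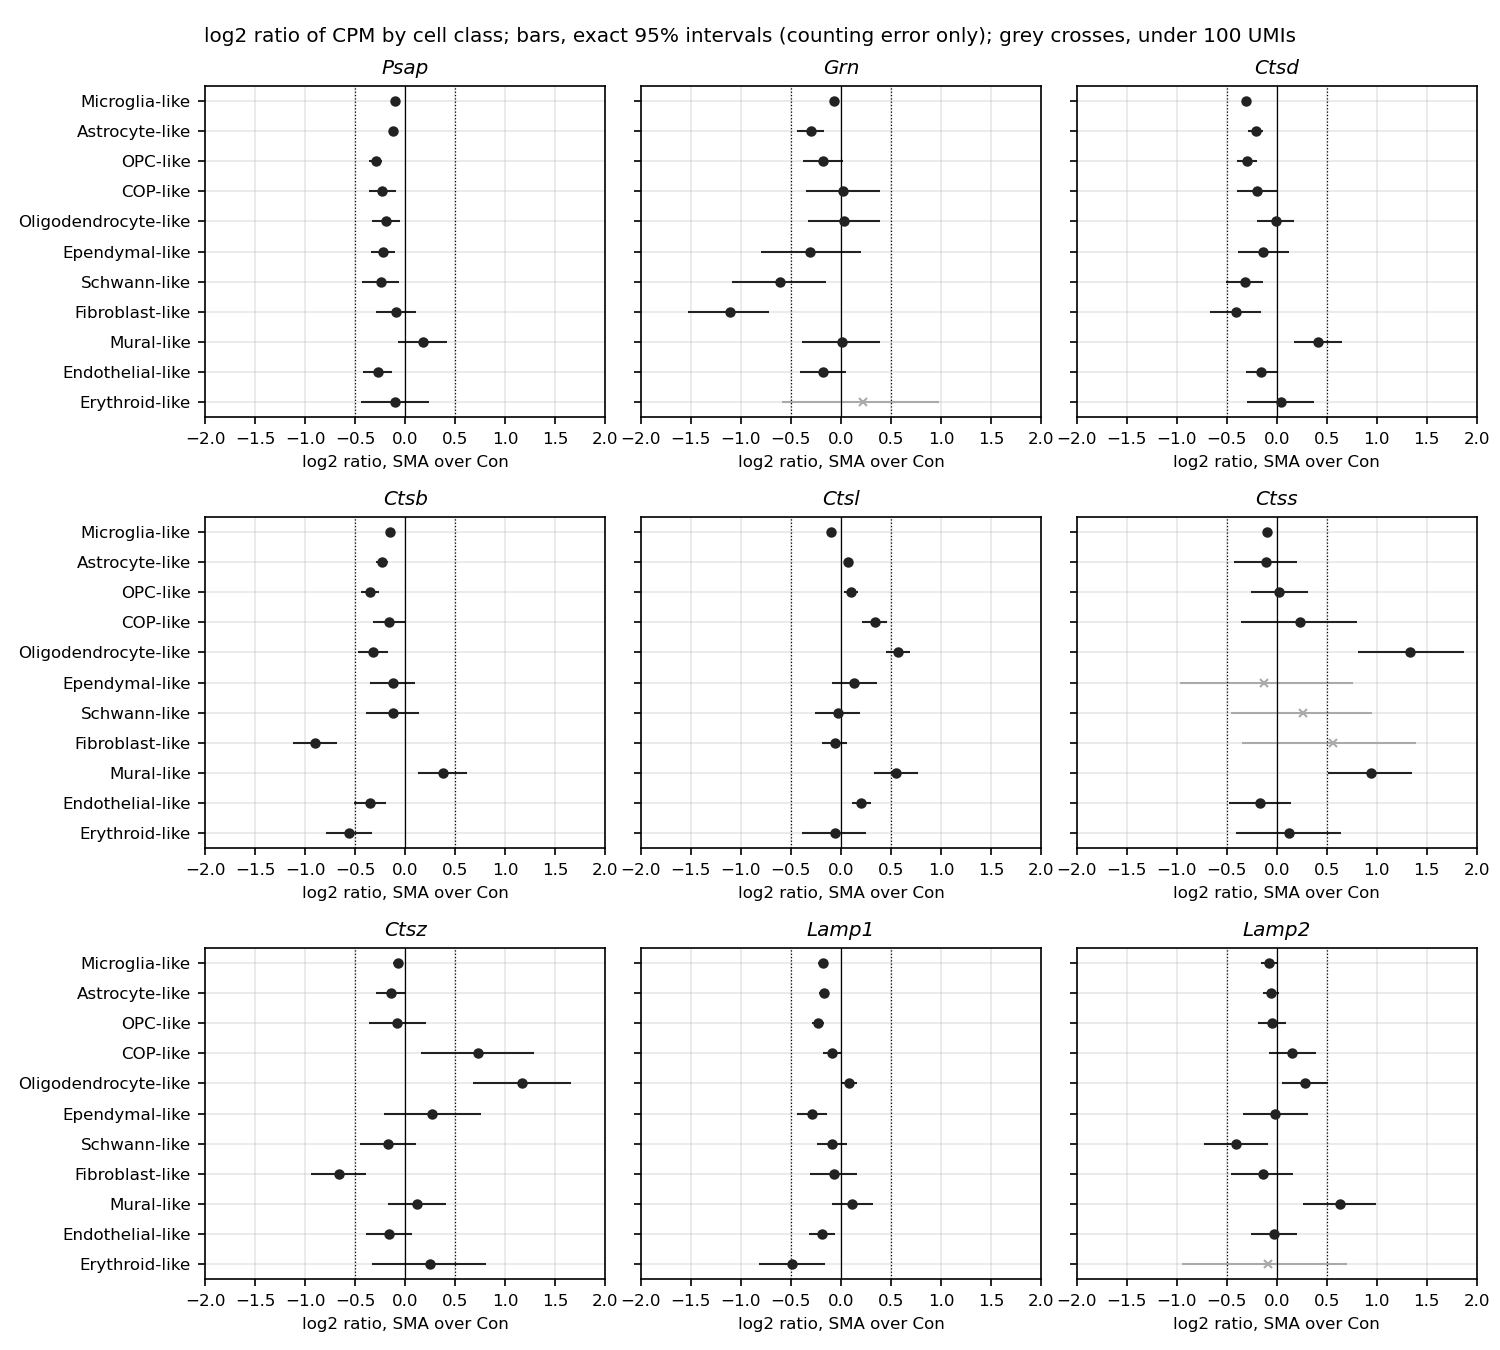
log2 ratio of CPM, SMA library over Con library, for each gene in 11 classes, with exact 95% intervals for counting error; dotted lines mark 0.5 in either direction and grey crosses mark pairs with under 100 UMIs. Psap lies left of 0 in every class but mural-like cells, Ctsl lies mostly right of 0, and fibroblast-like cells carry the lowest points of Ctsb, Ctsz and Grn.

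Prosaposin was lower in the SMA library by a similar small amount in most classes. In OPC-like cells it had 320.1 against 393 CPM, the lowest ratio of the 11 classes (log2 ratio -0.30, -0.36 to -0.23). Endothelial-like cells had 248 against 299 CPM (-0.27, -0.42 to -0.13), and Schwann-like cells 374 against 443 CPM (-0.25, -0.43 to -0.06). Values were -0.23 in COP-like, -0.22 in ependymal-like and -0.19 in oligodendrocyte-like cells, with intervals that did not reach 0. The classes with most Psap showed less: the log2 ratio was -0.12 in astrocyte-like (-0.16 to -0.08) and -0.10 in microglia-like cells (-0.14 to -0.06). In fibroblast-like (-0.09), erythroid-like (-0.10) and mural-like cells (0.18) the interval covered 0. Within the single clusters of at least 50 cells per library, Psap was lower in 22 of 25, as were 10.8% of the 618 genes compared in at least 25 clusters in 22 or more. The values ran from -0.38 in an OPC-like cluster to 0.37 in an astrocyte-like cluster of 75 and 119 cells.

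Progranulin transcripts differed most in fibroblast-like and Schwann-like cells. Grn had 97.5 against 211 CPM in fibroblast-like cells (log2 ratio -1.11, -1.53 to -0.72) and 56.3 against 85.9 CPM in Schwann-like cells (-0.61, -1.09 to -0.15). In astrocyte-like cells it had 82.3 against 101 CPM (-0.30, -0.44 to -0.17). In microglia-like cells, which hold most of it, the log2 ratio was -0.07 (-0.11 to -0.03).

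Cathepsin D showed the largest difference of the members in microglia-like cells, 3814 against 4709 CPM (log2 ratio -0.30, -0.33 to -0.28). It was lower as well in Schwann-like (-0.32), fibroblast-like (-0.41), OPC-like (-0.30) and astrocyte-like cells (-0.21), and higher in mural-like cells at 363 against 272 CPM (0.41, 0.17 to 0.65). The carried-over part of that mural-like level was 73.1% and 64.9%, and with it subtracted the log2 ratio was 0.027. Cathepsin B was lower in fibroblast-like cells at 330.3 against 616 CPM (-0.90, -1.12 to -0.68), in erythroid-like cells (-0.56) and, less far, in OPC-like and endothelial-like cells (both -0.35) and oligodendrocyte-like cells (-0.32). Microglia-like cells had 2531 against 2817 CPM of Ctsb (-0.15, -0.18 to -0.13).

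Cathepsin L was higher in the SMA library in 7 of 11 classes. It had 622 against 419.7 CPM in oligodendrocyte-like cells (log2 ratio 0.57, 0.45 to 0.69), 444 against 303 CPM in mural-like cells (0.55, 0.33 to 0.77) and 342 against 271 CPM in COP-like cells (0.34, 0.21 to 0.46). Endothelial-like cells followed (0.21, 0.11 to 0.30), and microglia-like cells were on the other side of 0 (-0.10, -0.14 to -0.06). Ctss was lower in microglia-like cells, the class with most of it, at 2139.8 against 2289 CPM (-0.10, -0.13 to -0.07). Its high ratios were in oligodendrocyte-like cells, 43.1 against 17.1 CPM (1.34), and in mural-like cells, 141 against 73.7 CPM (0.94). C1q RNA was higher in the same cells, with log2 ratios of 1.52 and 1.00, and the carried-over part of Ctss there was between 105% and 116% in both libraries. Ctsz was higher in oligodendrocyte-like cells (1.16, 0.67 to 1.66) and in COP-like cells (0.72, 0.15 to 1.28), in each case from under 100 UMIs per library, and lower in fibroblast-like cells (-0.66, -0.94 to -0.39). With a mitochondrial limit of 20% in place of 10%, the log2 ratios in oligodendrocyte-like cells were 0.11 for Ctsl, -0.12 for Ctss and -0.41 for Ctsz, and that of Ctsz in COP-like cells was 0.081. Cells were clustered anew at that limit, so these classes held other cells. Most oligodendrocyte-like cells then came from a cluster of 469 SMA and 663 Con cells with a median of 1408 UMIs.

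Of the membrane proteins, Lamp1 was lowest against Con in erythroid-like cells, at 29.3 against 41.04 CPM (log2 ratio -0.49, -0.82 to -0.16). Lamp1 was also lower in OPC-like cells at 416 against 488 CPM (log2 ratio -0.23, -0.29 to -0.17), in ependymal-like cells (-0.29), microglia-like cells (-0.18) and astrocyte-like cells (-0.17). Lamp2 was lower in Schwann-like cells (-0.40, -0.73 to -0.09) and higher in mural-like cells at 171 against 110 CPM (0.64, 0.27 to 1.00), and in microglia-like, astrocyte-like, OPC-like and endothelial-like cells its interval covered 0.

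Class by class, microglia-like cells had all 9 members below 0, with a median of -0.10 beside 0.05 for all 8591 genes compared. None was past the fold of 0.5, which 2.07% of genes passed downward and 5.55% upward. In astrocyte-like cells 8 of 9 were below 0 (median -0.14, all genes -0.04) and 0 were past the fold, passed by 4.42% of genes downward and 2.84% upward. OPC-like cells had 7 of 9 below 0 (median -0.18, all genes 0.01) with 0 past the fold, against 2.16% and 3.32% of genes. Endothelial-like cells had 8 of 9 below 0 (median -0.17) with 0 past the fold, against 6.87% and 6.92%, and ependymal-like cells 6 of 8 (median -0.13) with 0 past it, against 5.2% and 3.83%. The median of the members thus lay below the median gene in these 5 classes by less than the fold used, while Ctsl lay above 0 in 4 of them. Of all genes compared, 41.7% were below 0 in microglia-like, 56.1% in astrocyte-like, 49.1% in OPC-like, 49.0% in endothelial-like and 56.1% in ependymal-like cells.

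Mural-like and oligodendrocyte-like cells stood apart from these. In mural-like cells 0 of 9 members were below 0, the median was 0.38 beside -0.03 for all genes, and 3 members (Ctsl, Ctss and Lamp2) were past the fold upward, which 7.17% of genes passed, whereas 9.62% passed it downward. The SMA library had 91 mural-like cells and the Con library 261. C1q RNA in them was at 6.96% of its microglial level against 3.75%, and with the carried-over part subtracted in both libraries the median was 0.03. In oligodendrocyte-like cells 3 of 9 were below 0 (median 0.08) and Ctsl, Ctss and Ctsz were past the fold upward, beside 7.41% of genes upward and 9.98% downward. C1q RNA there was at 2.17% against 0.820% of the microglial level, and with the carried-over part subtracted the median was -0.11. In COP-like cells 4 of 9 were below 0 (median 0.02) and Ctsz alone was past the fold, upward, beside 5.88% of genes upward and 3.06% downward. Of all genes compared, 53.6% were below 0 in mural-like, 55.9% in oligodendrocyte-like and 41.8% in COP-like cells.

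Fibroblast-like cells had the lowest member values. All 8 members compared were below 0 (median -0.27, all genes -0.01) and Ctsb, Ctsz and Grn were past the fold downward, but so were 24.7% of all genes, and 17% were past it upward. The class was made of a cluster led by Timp1, with 2 SMA cells and 432 Con cells, and a cluster led by Mfap4, with 61 and 171 cells. In the second cluster alone the log2 ratio was -0.996 for Ctsb, -0.998 for Grn, -0.72 for Ctsd, -0.66 for Ctsz and -0.32 for Psap. The median over the members there was -0.51, beside -0.03 for all genes, and the share of all genes past the fold was not counted. With shared barcodes included, the log2 ratios in fibroblast-like cells were -0.50 for Ctsb, -0.50 for Grn and -0.38 for Ctsz. That setting adds SMA cells with shared barcodes, of which 145 also had a fibroblast-like Con copy, to the 63 SMA cells used here. The same cells may then be in both libraries, so the setting by itself draws ratios toward those between copies. Haemoglobin RNA in the class was at 452 CPM in the SMA library and 19653 CPM in the Con library. With haemoglobin and mitochondrially encoded genes left out of the totals, the log2 ratios were -0.89 for Ctsb, -1.11 for Grn and -0.66 for Ctsz. Schwann-like cells had 8 of 8 members below 0 (median -0.21) and Grn past the fold downward, beside 6.85% of genes downward and 9.16% upward. Erythroid-like cells had 4 of 7 below 0 (median -0.06) and Ctsb past it downward, beside 9.71% downward and 7.06% upward. Of all genes compared, 50.8% were below 0 in fibroblast-like, 45.5% in Schwann-like and 49.5% in erythroid-like cells.

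The members were also counted in the copies of barcodes kept in both libraries. SMA copies held fewer UMIs than Con copies of the same barcodes, for example 5284 against 29013 UMIs of Ctsd in microglia-like cells and 1813 against 10238 UMIs of Psap in astrocyte-like cells. The origin of the copies was not tested. If they are the same molecules read in both files, they did not pass through a separate preparation, so ratios near 0 between them do not measure the spread between libraries, and the values are given as a description. Over 82 pairs of a member and a class the copies had a median log2 ratio of 0.00 and a range from -0.28 to 0.58, and 65 lay within 0.2 of 0. SMA copies of Lamp1 were lower than Con copies in 9 of 11 classes with a median of -0.15, close to the Lamp1 median of -0.17 between different cells. Psap copies were lower in 8 of 10 classes with a median of -0.02. They lay at -0.25 in COP-like cells, where different cells gave -0.23, at -0.14 in OPC-like cells, where different cells gave -0.30, and at -0.02 in microglia-like cells, where different cells gave -0.10. For Ctsd the copies were higher in 9 of 11 classes with a median of 0.10, opposite to the median of -0.19 between different cells. Ctsb copies had a median of 0.01 against -0.23, and Ctsl copies of -0.01 against 0.10. In fibroblast-like cells the log2 ratio between copies was 0.07 for Ctsb (-0.18 to 0.31), 0.19 for Ctsz (-0.15 to 0.52) and 0.50 for Grn (0.08 to 0.90).

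**Figure D4:**
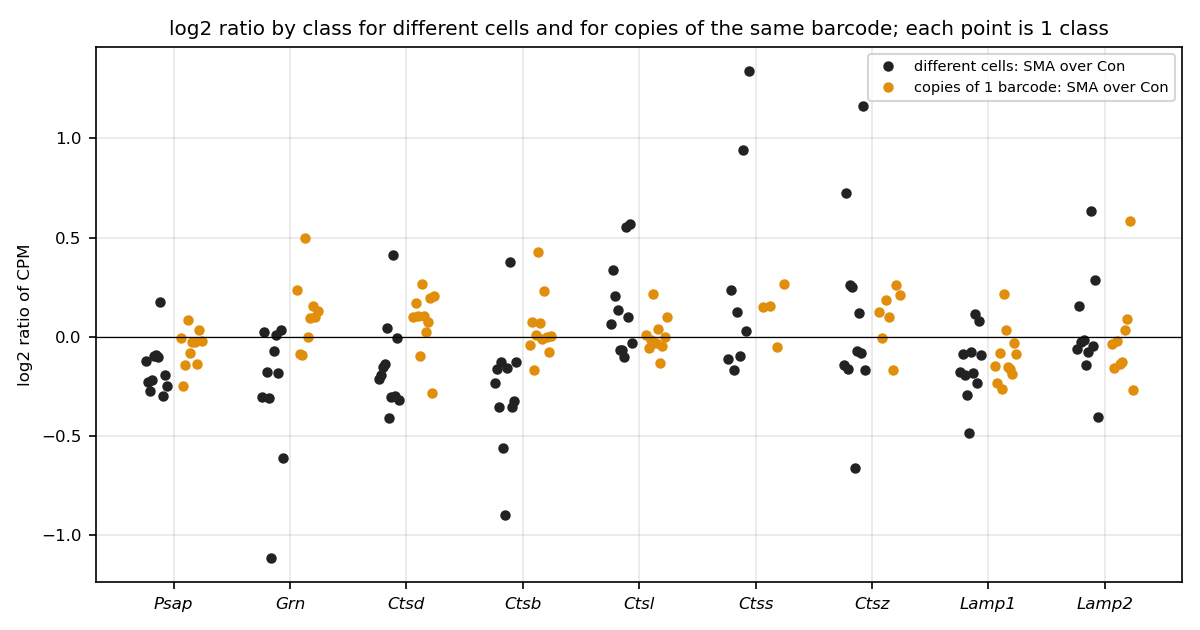
log2 ratio of CPM, SMA library over Con library, for each gene, with 1 point per class of at least 100 UMIs; black points compare different cells and orange points compare copies of the same barcodes. The median of the orange points of Lamp1 (-0.15) is close to that of its black points (-0.17), whereas the orange points of Ctsd lie mostly above 0.

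Within the myeloid cells, Ctsd and Psap had the same order of levels over 3 microglia-like clusters in both libraries. Of 4 microglia-like clusters, the main one (cluster 3, led by Il1a and Cx3cr1, 823 and 731 cells) had the most Ctsd, 4103 CPM in SMA and 5188 CPM in Con cells. A cluster led by Ccl4 and Cd83 (cluster 29, 103 and 80 cells) had 2256 and 2478 CPM, and a cycling cluster led by Mki67 (cluster 30, 133 and 76 cells) had 3807 and 4294 CPM. Psap followed the same order, at 1592 and 1670.4 CPM in cluster 3, 1247 and 1340.3 CPM in cluster 30 and 1108 and 1227 CPM in cluster 29. All 9 members were lower in the SMA library in clusters 3 and 29, and in cluster 30 all but Lamp2 (0.01). Of all genes compared, 44.9% were lower in cluster 3, 39.0% in cluster 29 and 50.4% in cluster 30. The remaining microglia-like cluster (cluster 9, 48 and 28 cells) went the other way, with all 9 members higher, among them Ctsd at 3200.2 against 2084 CPM (log2 ratio 0.62), but it was under the minimum of 50 cells and its median gene was at 0.35 as well.

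Macrophage-like cells, with markers of the borders of the nervous system such as Pf4, Lyve1 and Mrc1, numbered 38 in the SMA library and 68 in the Con library, under the minimum for the classes compared. Ctss was at 536 and 523 CPM, Ctsd at 1063 and 1451 CPM and Psap at 722 and 759.5 CPM, all below every one of these 3 microglia-like clusters. Grn, at 1013 and 1182 CPM, and Ctsb, at 1887 and 2702 CPM, were within the range of these clusters in both libraries. The log2 ratio in macrophage-like cells was -0.52 for Ctsb (-0.65 to -0.39), -0.45 for Ctsd and 0.47 for Ctsl (0.25 to 0.70).

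**Figure D5:**
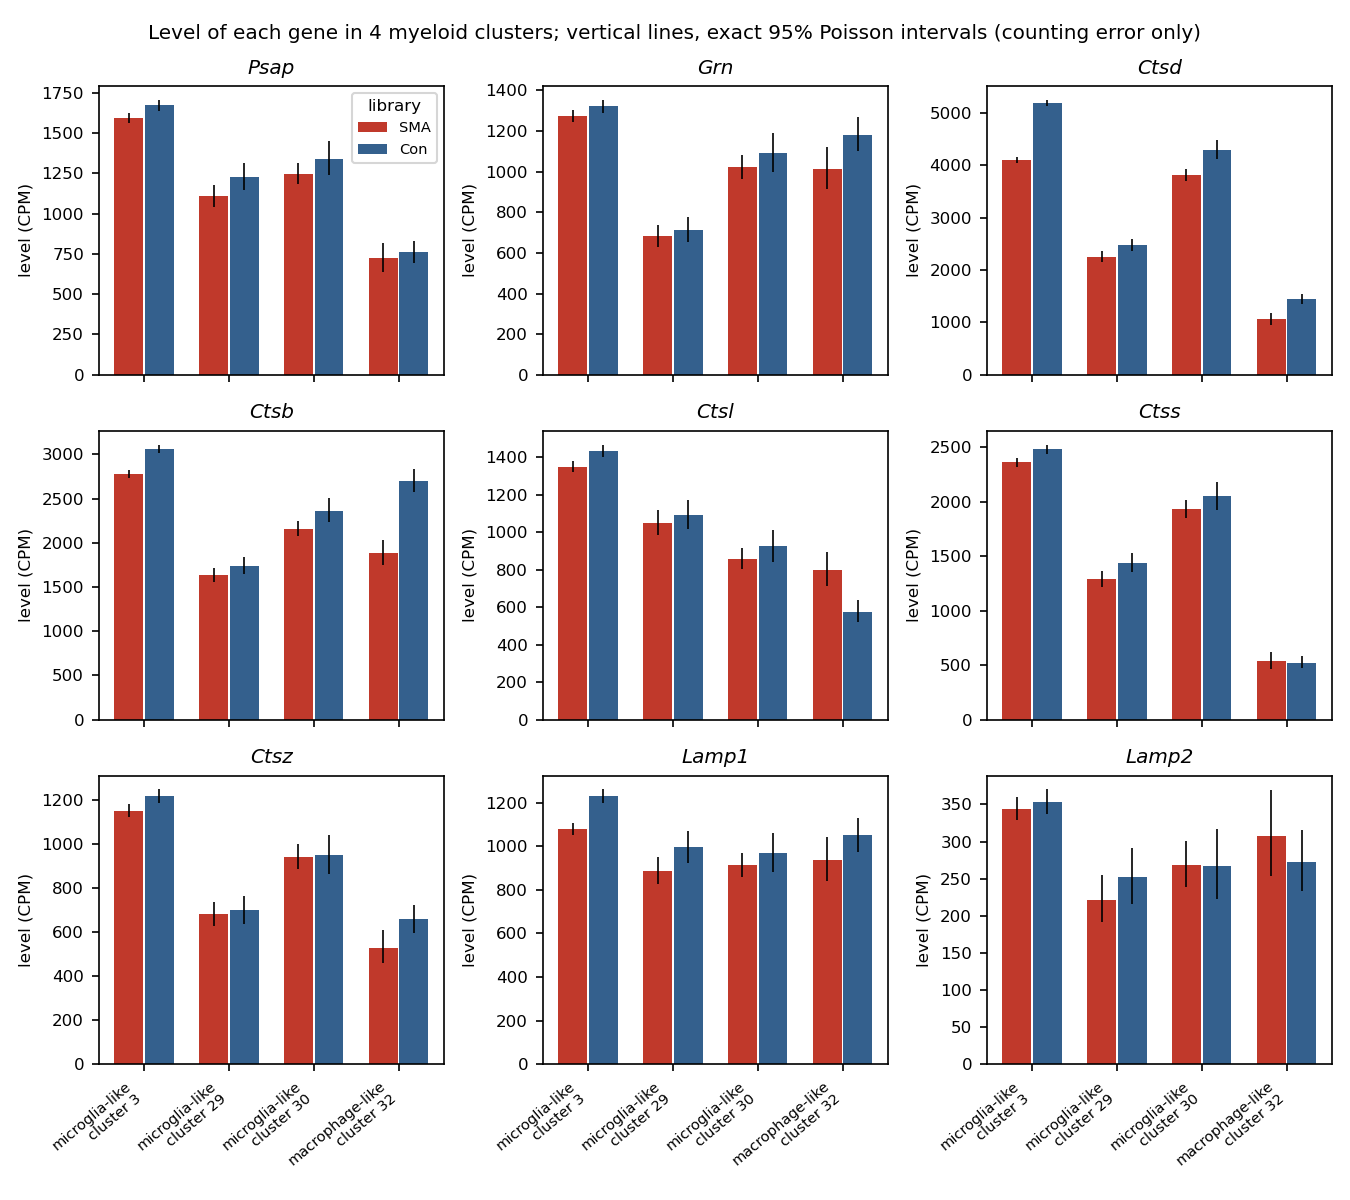
Level (CPM, linear axis from 0) of each gene in 3 microglia-like clusters and the macrophage-like cluster, as bars for the SMA library (red) and Con (blue) with exact 95% Poisson intervals. Ctss and Ctsd are lowest in macrophage-like cells, and the SMA bar is the lower one for all 9 genes in clusters 3 and 29.

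The share of cells with at least 1 UMI of a member was compared after each cell had been thinned to 1000 UMIs. Psap was then found in 75.5% of microglia-like SMA cells and 76.3% of Con cells, and in 62.7% of astrocyte-like cells of both libraries. In OPC-like cells the share was 28.6% against 32.8%, and in ependymal-like cells 46.5% against 54.2%. The share in erythroid-like cells was 3.13% and 3.36%, at a median of 9596 and 9590 UMIs per cell before thinning against 6867 and 7050 in microglia-like cells, but with most of their UMIs from haemoglobin it gives no background share for the other classes. Ctss was found in 85.1% and 87.1% of microglia-like cells but in 0.654% to 5.49% of the cells of the other 10 classes, where it is not read as expression.

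The receptors and enzymes that work with prosaposin and progranulin were taken from a fixed list. Gpr37l1, a receptor of astrocytes and oligodendrocyte precursors, was lower in the SMA library in 8 of the 9 classes with enough UMIs, with a median log2 ratio of -0.41, and 15.7% of the 427 genes measured in 9 classes were lower in 8 or more. It had 245 against 337 CPM in OPC-like cells (-0.46, -0.53 to -0.39), 294 against 332 CPM in astrocyte-like cells (-0.17, -0.24 to -0.10) and 139.7 against 247 CPM in oligodendrocyte-like cells (-0.82, -1.04 to -0.61). Gpr37, the related receptor of oligodendrocytes, was higher there at 185 against 96.9 CPM (0.93, 0.70 to 1.16) and within its counting interval of 0 in astrocyte-like cells, at 46.5 against 45.5 CPM (0.03, -0.16 to 0.22). In ependymal-like cells, the other class with enough UMIs, Gpr37 had 33.1 against 44.1 CPM (-0.41, -0.95 to 0.14). The receptors thus differed in opposite directions in oligodendrocyte-like cells. This class was made of a cluster led by 9630013A20Rik, with 94 SMA and 231 Con cells, and a cluster led by Mog, with 68 and 110 cells. The part of this makeup in the ratios was not tested.

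Of the uptake receptors, Lrp1 was lower in fibroblast-like cells (log2 ratio -0.97) and between -0.44 and 0.19 in the 7 other classes compared, Igf2r was higher in endothelial-like cells (0.98), and M6pr lay between -0.16 and 0.14 in 10 classes. Sort1 had enough UMIs in 2 classes, at -0.24 and -0.07. Among saposin-dependent enzymes, Glb1 was lower in 6 of 6 classes (median -0.50), as were 7.87% of genes measured in 6 classes. Asah1, the acid ceramidase, was higher in 9 of 10 (median 0.14), and 11.9% of genes measured in 10 classes were higher in 9 or more. Galc lay between -0.28 and 0.22 in 5 classes, Gla between -0.00 and 0.19 in 3, and Arsa at -0.40 and 0.46 in 2. Tmem106b, a lysosomal membrane protein linked to progranulin, was higher in 10 of 10 classes (median 0.18).

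Other lysosomal genes were counted from lists of proteases, cystatins, membrane proteins, hydrolases, proton pump subunits, sorting factors and MiT factors. Of these genes and Gpr37l1, 43 had enough UMIs in at least 8 classes, and 7 of the 43 were lower in every class measured, namely Atp6ap1, Atp6v0d1, Atp6v1b2, Hexa, Ppt2, Smpd1 and Tpp1, and Tmem106b alone was higher in every class. Over all 3419 genes measured in at least 8 classes, 5.18% were lower and 7.34% higher in every class. Hexa, a lysosomal hydrolase, had a median log2 ratio of -0.56 over 10 classes, and in microglia-like cells it had 404 against 591 CPM (-0.55, -0.62 to -0.48). Atp6ap1, an accessory subunit of the proton pump, had a median of -0.50 over 10 classes. Among cystatins, inhibitors of cysteine cathepsins, Cst3 was above 0 in 10 of 11 classes, beside 25.8% of genes in 10 or more. Cstb was above 0 in 9 of 10, beside 11.9% of genes measured in 10 classes in 9 or more. Cst3 had 38808 against 28620 CPM in astrocyte-like cells (0.44), whereas in microglia-like cells it had 21698 against 23198 CPM (-0.10).

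In microglia-like cells the lists had 99 genes compared, of which 61 were below 0 (median -0.06), 3 were past the fold downward and 2 upward, beside 41.7% of all genes below 0, 2.07% past the fold downward and 5.55% upward. The lowest was Tmem175, a lysosomal potassium and proton channel, at 16.9 against 25.2 CPM (log2 ratio -0.58), and the highest was Tfec, a factor of the MiT family, at 8.94 against 4.68 CPM (0.93, 0.31 to 1.59) from 72 and 31 UMIs. The hydrolases had 27 of 37 genes below 0 there and the proton pump 9 of 18. In OPC-like cells the lowest of the lists was Ppt2 (-0.70) and the highest Igf2r (0.48), and in astrocyte-like cells Atp6ap1 (-0.56) and Arsa (0.46). In mural-like cells Hexa was lowest (-0.95) and Ctsk highest (1.32), and in fibroblast-like cells Gusb (-1.27) and Cst3 (0.70). In oligodendrocyte-like cells Gaa was lowest (-1.04).

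As a description over 11 classes of the same libraries, the mean log2(CPM + 1) of Psap had a Pearson r of 0.94 with Lamp2, 0.89 with Lamp1, 0.83 with Ctsl, 0.81 with Ctsd, 0.80 with Ctsb and with Grn, 0.63 with Ctsz and 0.47 with Ctss. Ctsd had 0.97 with Grn and 0.95 with Ctsb. Among 8945 genes with at least 1000 UMIs, the genes most like Psap were Ifrd1, Tmem219 and Mthfs (r from 0.95 to 0.96), and those most like Lamp2 were Ifrd1, Rrbp1 and Plbd2. Ctsl was most like Rrbp1, Plbd2 and Osbpl8, and Lamp1 most like Scarb2, Arl8b and Tom1. Ctsd was most like Tcirg1, Hps4 and Tfe3, Grn like Hps4, Bcl2l11 and Ctsa, and Ctsb like Hebp1, Hivep3 and Pycard. Ctss was most like Ptafr, Trem2 and Selplg, all at 1.00 after rounding, and Ctsz like Renbp, Ccl2 and Cmtm7. With log2(CPM + 10), 1 of the 3 genes was the same for Ctss (Trem2) and Lamp1 (Arl8b), and 2 of the 3 for each of the other 7 members.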

How the data were processed

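The deposited files hold raw UMI counts of each gene in each barcode, which the authors obtained with Cell Ranger from droplet libraries. Per the file headers this was version 4.0.0, whereas the study's methods name another, and the submitters' processing notes name build mm10 and Seurat 3.2.2. The authors had filtered barcodes before deposit. The files held 85872075 UMIs in the SMA library and 97894084 in the Con library.

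Barcodes were kept with 200 to 4000 genes and under 10% mitochondrial UMIs, without a cluster with a median ribosomal share over 30% (1340 Con barcodes, 0 SMA barcodes). The upper gene limit was the only treatment of doublets. The 2000 most variable genes, without the members and the lysosomal lists, gave 30 principal components, and a graph of 20 nearest neighbours was cut into communities with the Louvain algorithm (resolution 1) (scikit-learn 1.9.0, python-igraph 0.11.9). Clusters were named from fixed markers. Unnamed clusters held 6.04% and 6.82% of cells. Class names were rebuilt here and can differ from those of the study.

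UMIs were summed per class and library and scaled to CPM, counts per 1000000 UMIs of the class. Pairs of a gene and a class with under 100 UMIs, and classes under 50 cells in either library, were not compared. Intervals are at the 95% level: exact Poisson for levels, exact conditional binomial for ratios and Clopper-Pearson for shares (scipy 1.17.1), checked on simulated data. They cover counting error only. The members, lists and fold were chosen with earlier results of these data known. All members were named, and from the lists the partners and the lowest and highest gene of the classes described. The other genes, those lower or higher in every class and further examples, were named after their values were seen. Alternatives changed the barcode handling, filters, resolution, weighting of cells, centring, the genes in the totals (without haemoglobin and mitochondrially encoded genes), pseudocount, UMI minimum and fold, or subtracted the C1q part. Positions are from GENCODE M21. Ctsb, Ctsl, Ctsz, Grn and Lamp1 overlap a gene of the other strand there, and the use of strand in counting was not given in the sources used here. Ctsb had no promoter in the RefSeq table. Some listed genes are not reported here.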

Additional observations from a re-analysis of the deposited data

Results flagged for a closer look

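Ctsz lay past the fold in opposite directions in 2 classes, with a log2 ratio of -0.66 in fibroblast-like and 1.16 in oligodendrocyte-like cells, and the difference between these classes was not tested. The fibroblast-like value was -0.38 with shared barcodes included, a setting that may put the same cells in both libraries. The oligodendrocyte-like value was -0.41 with a mitochondrial limit of 20% and 0.071 when the shared SMA barcodes were left out before clustering. In these 2 settings cells were clustered anew and the class held other cells. Most then came from 1 cluster, with a median of 1408 and 1790 UMIs in the 2 settings. The carried-over part of Ctsz in oligodendrocyte-like cells was 50.06% in the SMA library and 44.5% in the Con library, and with it subtracted the log2 ratio was 1.01. In monocyte-like cells, a class with too few SMA cells to be compared (21 against 284), 4 members had a higher level in the Con library than in any class compared: Psap at 2586 CPM, Ctsb at 3490 CPM, Ctsl at 1544 CPM and Ctsz at 1426 CPM. The 21 SMA cells had 1011 CPM of Psap. The cells under this name were unlike in the libraries, with C1q RNA at 123 CPM labelled SMA and 9766 CPM labelled Con and a median of 3888 and 1494.5 UMIs per cell, so no difference is read from them.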

How the results depend on the processing

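No paired analysis was possible because each group was 1 library. Of 1029 log2 ratios of a member in a class under another setting, 979 kept their direction, and of 123 class medians 111 did. The number of pairs past the fold downward (5) was 2 with shared barcodes included, 11 with the C1q part subtracted, 1 at a fold of 1 and 25 at a fold of 0.2. The number upward (7) was 4 with shared barcodes included, 1 with a mitochondrial limit of 20%, 4 with the C1q part subtracted, 2 with at least 300 UMIs, 2 at a fold of 1 and 15 at a fold of 0.2. The median in erythroid-like cells was 0.27 with each cell weighted equally and -0.50 with the C1q part subtracted. In microglia-like cells it was -0.15 when centred on the median gene, and in mural-like cells 0.11 with equal weights and 0.029 with the C1q part subtracted. In oligodendrocyte-like cells it was -0.16 with a mitochondrial limit of 20%, -0.067 at resolution 0.5 and -0.11 with the C1q part subtracted. With the limit of 20%, Ctss (-0.12) and Ctsz (-0.41) reversed there. The cause was not tested, except that a fold of 1 or 0.2 and a minimum of 300 UMIs change the counts by construction. Including shared barcodes adds SMA cells that may also be in the Con library, so by construction it draws ratios toward those between copies. The limit of 20%, resolution 0.5 and clustering without the shared SMA barcodes also changed which cells a class held. The fold of 0.2, the fibroblast-like cells without the Timp1 cluster and cluster 3 alone were chosen after seeing the data. Psap was lower in 9 to 11 of 11 classes under each setting recomputed over all classes, with a median from -0.26 with the C1q part subtracted to -0.10 with shared barcodes included (-0.19 otherwise reported). Ratios from under 100 UMIs are limited by depth, and with 1 library per group no ratio can be told apart from a difference between pools of mice.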

Other observations

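Neuron-like cells were too few to be compared, with 43 labelled SMA and 26 labelled Con. They had 460.3 CPM of Psap in the SMA library and 618 CPM in the Con library, with 95% counting intervals of the log2 ratio from -0.74 to -0.11. Ctsl was at 411 and 353 CPM and Lamp1 at 162 and 231 CPM in them. Neuron-like SMA cells had 507 CPM of haemoglobin RNA against 46093 CPM in the Con library.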
